A study of Mus musculus with 6 samples.

Results

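Expression of 33 macrophage and monocyte genes was examined in mouse mammary stroma with and without Rarb, the gene of retinoic acid receptor beta. A gene was measured where a probe set carried its symbol, or an older synonym of it, and no other symbol. This held for 32 of the 33 genes, out of 20519 genes named by the arrays. Mpeg1, a pore-forming protein gene of macrophages, was found only on a probe set that names several genes, and it is given no value. Total RNA came from cleared mammary fat pads of 4-week-old mice, with 3 arrays labelled Rarb -/- (called Rarb-null) and 3 arrays labelled Rarb +/+ from littermates (called wild type). The samples of both genotypes carry a description that ties the young mice to ErbB2, without saying that they bore a transgene. The design of the Rarb deletion and the number of mice behind an array were not stated either, so the p-values describe array-to-array spread, which may be technical.

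Macrophages are tissue phagocytes that arise from embryonic progenitors or from blood monocytes, and most of them depend on signalling from the growth factor Csf1 to its receptor Csf1r. They carry receptors for antibodies, complement, lipids and microbial sugars, and they digest what they take up in lysosomes. In the mammary gland, macrophages gather around the growing end buds at puberty, and mice that lack Csf1 have poorly branched ducts. Resident macrophages of connective tissue are marked by scavenger and endocytic receptors such as Mrc1, Cd163, Folr2 and Lyve1.

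All values are deposited log2 signals of a probe set, where 1 unit is a 2-fold difference in signal, and each difference subtracts the wild-type mean from the Rarb-null mean. Group values are means ± SD over 3 arrays. Signals of different genes come from different probes and were not ranked against each other. The tissue label was checked by markers. Adiponectin (Adipoq), an adipocyte hormone, read 14.38, 14.52 and 14.39 in Rarb-null against 14.62, 14.35 and 14.62 in wild type. The epithelial adhesion gene Epcam read 13.46, 13.46 and 13.30 in Rarb-null against 12.85, 13.61 and 12.71 in wild type. Epithelial RNA was thus measured although the label calls the fat pads cleared, a word used for fat pads freed of epithelium. The single Rarb probe set read 6.50, 6.61 and 7.41 in Rarb-null against 6.95, 6.01 and 6.65 in wild type. It was not lower in Rarb-null, and since the deleted part of the gene was not stated, this probe set checks nothing about the labels. The 6 arrays also differed in proliferation and brown fat genes, whose values stand beside the results they accompany below.

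None of the 32 genes passed the test between Rarb-null and wild-type stroma. In limma, 0 of 32 had an adjusted p under 0.05, and the values ran from 0.908 to 0.999. Over all 45037 probe sets tested the share past that threshold was 0%. Without adjustment, 0 of 32 genes reached a p under 0.05, where 5.3% of all genes reached it, 1.9% with a higher and 3.41% with a lower mean in Rarb-null. The groups overlapped for each of the 32 genes, whereas they did not overlap for 10.6% of all genes, 4.01% higher and 6.59% lower. The mean was higher on Rarb-null arrays for 15 genes and lower for 17, against 47.1% of all genes with a higher mean. The median difference was -0.04 log2, beside -0.01 log2 over all genes. In this bulk tissue, the number of macrophages and the RNA per macrophage cannot be told apart. For 28 of the 32 genes the 95% interval of the difference lay within 2-fold either way, as it did for 92.7% of all genes. The exceptions were C1qb, Cd14, Aif1 and Gpnmb. The interval lay within 1.5-fold for 14 of the 32 genes and for 70.3% of all genes.

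**Figure D1:**
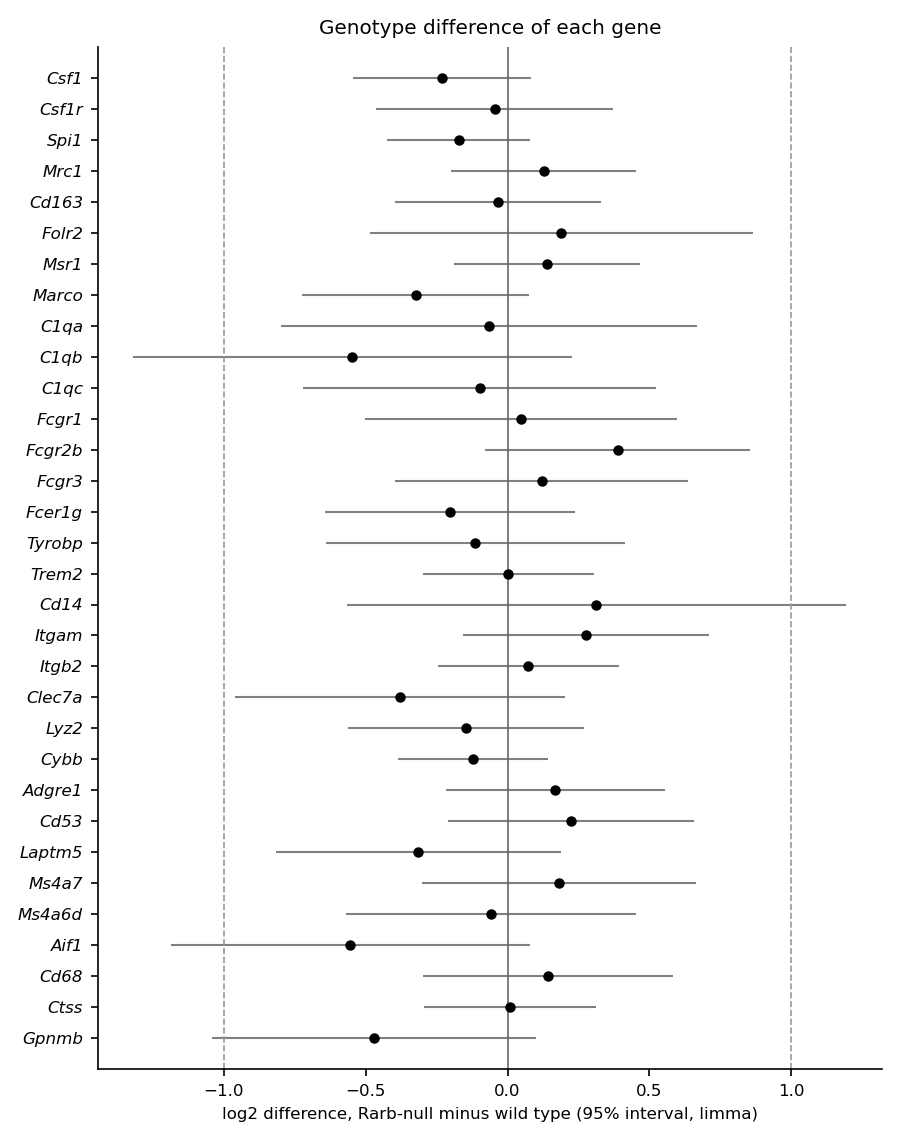
Difference of each of the 32 genes on the log2 scale (Rarb-null minus wild type, horizontal axis), with points for the difference and lines for the 95% interval from limma (3 arrays per genotype); dashed lines mark a 2-fold difference. Every interval includes 0, and those of C1qb, Cd14, Aif1 and Gpnmb reach past a 2-fold difference.

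All 3 genes of the growth factor axis had slightly lower means in Rarb-null, each within the spread between arrays. Csf1, the ligand that keeps macrophages alive and dividing, read 9.08, 8.96 and 9.18 in Rarb-null (replicates 1, 2 and 3) against 9.18, 9.21 and 9.53 in wild type. Its highest value belonged to wild-type replicate 3 and its lowest to Rarb-null replicate 2. The means were 9.07 ± 0.11 against 9.30 ± 0.19 (SD, n = 3 each), which differ by -0.23 log2 (95% interval -0.54 to 0.08, adjusted p in limma 0.911). All 3 other probe sets of Csf1 were lower too, at -0.35 to -0.13 log2, and 1 of them had an unadjusted p of 0.0362 (adjusted p in limma 0.908). Csf1r, the receptor tyrosine kinase that binds Csf1, read 13.26, 13.31 and 13.47 in Rarb-null against 13.003, 13.60 and 13.57 in wild type. The Rarb-null values lay inside the wild-type range, and the difference was -0.05 log2 (interval -0.46 to 0.37). Both other probe sets of Csf1r had the opposite sign, at 0.02 and 0.28 log2.

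Spi1 encodes PU.1, the transcription factor required for macrophage development, and was listed in the deposited annotation under its older symbol Sfpi1. It read 7.54, 7.31 and 7.40 in Rarb-null against 7.53, 7.59 and 7.64 in wild type. Rarb-null replicate 1 lay among the wild-type arrays and the other 2 below them, and the difference was -0.17 log2 (interval -0.42 to 0.08, adjusted p in limma 0.914).

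PU.1 binds purine-rich sequence around GGAA, and its letters AGGAAGT were looked for on both strands of the members' promoters, from 250 bases before to 50 bases after each start in RefSeq (build GRCm38.p6). Of the 32 measured genes, 23 had an entry there, with 27 starts in all. The letters occurred in 8 of the 27 promoters, those of C1qb, C1qc, Cd53, Ctss, Fcgr1, Folr2, Lyz2 and Mrc1, and in 9.35% of the 32851 promoters of all genes. A composite of PU.1 and interferon regulatory factor letters, GGAA followed after 2 bases by GAAA, occurred in 6 of the 27 (those of Cd68, Cybb, Fcgr2b and Folr2 and 2 starts of Clec7a) and in 2.72% of all promoters. In the promoter of Folr2 both motifs overlapped. A direct repeat of AGGTCA with 5 bases between, a form bound by retinoic acid receptors, occurred in 0 of the 27 and in 3 of all 32851 promoters. These exact letters are so rare that the 0 tells nothing about the members. A match is a description of letters and not a binding site. The promoters of 5 genes from the resident, complement and lysozyme groups, whose values follow, are shown with the PU.1 letters in capitals, which read ACTTCCT where the match is on the other strand.
C1qb (chr4:136886151-136886450, minus strand): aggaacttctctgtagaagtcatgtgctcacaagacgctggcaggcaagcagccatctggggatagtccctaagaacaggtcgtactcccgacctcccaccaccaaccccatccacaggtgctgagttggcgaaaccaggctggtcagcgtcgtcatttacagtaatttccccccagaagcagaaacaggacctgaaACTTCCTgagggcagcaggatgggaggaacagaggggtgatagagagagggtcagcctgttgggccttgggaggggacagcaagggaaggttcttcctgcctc
C1qc (chr4:136892865-136893164, minus strand): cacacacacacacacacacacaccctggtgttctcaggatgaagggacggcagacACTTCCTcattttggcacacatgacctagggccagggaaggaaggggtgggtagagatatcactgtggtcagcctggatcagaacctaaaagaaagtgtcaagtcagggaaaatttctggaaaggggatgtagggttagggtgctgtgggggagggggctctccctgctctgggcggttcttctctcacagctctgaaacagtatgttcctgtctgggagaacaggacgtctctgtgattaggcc
Mrc1 (chr2:14229164-14229463, plus strand): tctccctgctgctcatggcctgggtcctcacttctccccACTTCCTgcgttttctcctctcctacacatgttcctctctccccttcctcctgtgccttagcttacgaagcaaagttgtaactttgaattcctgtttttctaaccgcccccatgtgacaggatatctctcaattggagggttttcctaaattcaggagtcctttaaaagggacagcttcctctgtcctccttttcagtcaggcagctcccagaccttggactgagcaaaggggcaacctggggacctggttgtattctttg
Folr2 (chr7:101857141-101857440, minus strand): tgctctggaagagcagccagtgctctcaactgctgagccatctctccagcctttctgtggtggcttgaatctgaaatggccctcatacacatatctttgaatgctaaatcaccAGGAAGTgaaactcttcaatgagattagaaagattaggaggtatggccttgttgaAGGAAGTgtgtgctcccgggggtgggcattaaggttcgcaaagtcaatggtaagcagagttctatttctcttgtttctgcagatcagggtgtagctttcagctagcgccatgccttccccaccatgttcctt
Lyz2 (chr10:117282223-117282522, minus strand): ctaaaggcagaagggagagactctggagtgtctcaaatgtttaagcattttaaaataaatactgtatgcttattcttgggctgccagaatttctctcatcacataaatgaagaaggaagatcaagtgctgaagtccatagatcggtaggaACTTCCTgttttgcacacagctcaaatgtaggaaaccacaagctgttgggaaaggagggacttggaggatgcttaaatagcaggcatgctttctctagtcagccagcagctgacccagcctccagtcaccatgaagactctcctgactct
The match began 53 bases before the start in C1qb, 195 in C1qc, 211 in Mrc1, 100 in Lyz2, and 137 and 82 in Folr2.

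The complement C1q chains varied widely between arrays, and mainly within the wild type. C1qa, C1qb and C1qc encode the chains of the recognition molecule of the classical complement pathway, which tissue macrophages secrete, and they neighbour each other on chromosome 4. C1qa read 11.29, 11.24 and 10.76 in Rarb-null (replicates 1, 2 and 3) against 10.51, 11.75 and 11.24 in wild type. C1qc read 11.40, 11.11 and 11.11 in Rarb-null against 10.74, 11.83 and 11.36 in wild type. For both genes wild-type replicate 1 was the lowest and wild-type replicate 2 the highest of the 6 arrays, with all Rarb-null arrays between them. From wild-type replicate 1 to 2 the signal differed by 2.36-fold for C1qa and 2.13-fold for C1qc. The genotype means of C1qa were 11.10 ± 0.29 against 11.17 ± 0.62, a difference of -0.07 log2 (interval -0.80 to 0.67), and C1qc differed by -0.10 log2 (interval -0.72 to 0.52).

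C1qb had the lowest genotype difference of the list after Aif1, and its probe sets disagreed. Its brightest probe set read 11.72, 11.54 and 11.20 in Rarb-null (replicates 1, 2 and 3) against 11.31, 12.67 and 12.12 in wild type. Wild-type replicates 2 and 3 lay above all Rarb-null arrays and wild-type replicate 1 lay among them. The means were 11.49 ± 0.26 against 12.03 ± 0.68, a difference of -0.55 log2 (interval -1.32 to 0.23, adjusted p in limma 0.912). Its difference was -0.91 log2 without wild-type replicate 1 and -0.23 log2 without wild-type replicate 2. A second probe set gave -0.41 log2. Both of these end in _x_at, the manufacturer's mark for probes that may match other transcripts too. The other 2 probe sets of C1qb gave 0.03 and 0.01 log2. One of them read 10.68, 10.58 and 10.52 in Rarb-null against 10.07, 11.08 and 10.55 in wild type, with wild-type replicate 1 lowest and wild-type replicate 2 highest as for C1qa and C1qc.

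**Figure D2:**
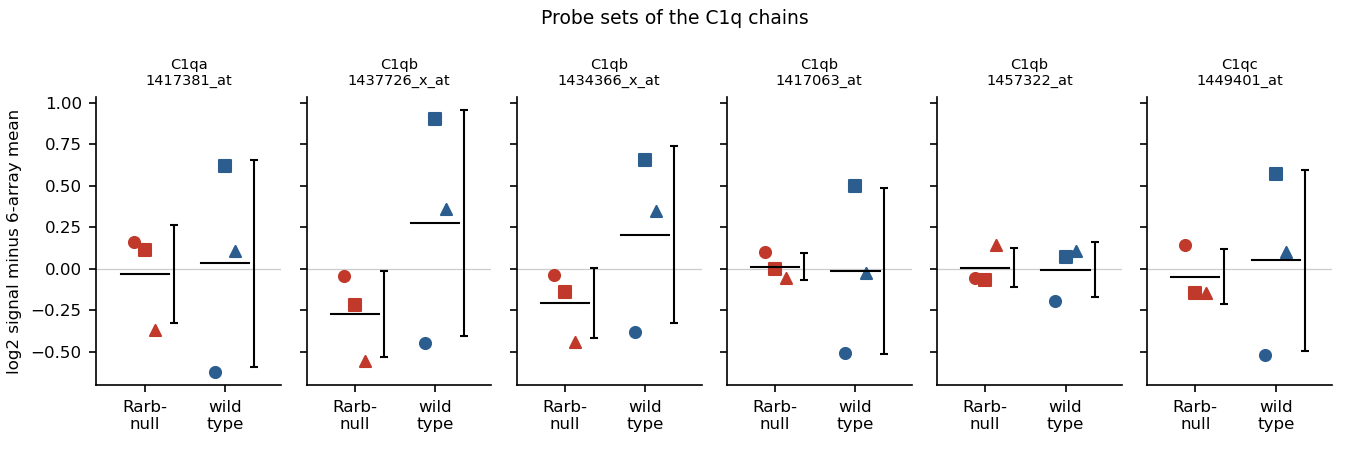
Log2 signal of each C1q probe set relative to its mean over the 6 arrays (vertical axis), for Rarb-null (red) and wild-type (blue) arrays; circle, square and triangle are replicates 1, 2 and 3, the horizontal line is the group mean and the bar beside it 1 SD (n = 3). Wild-type replicate 2 is the highest array in 5 of the 6 panels, and wild-type replicate 1 is the lowest in 4 of them.

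Of the resident and scavenger receptor genes, 3 had a higher and 2 a lower mean in Rarb-null, and none passed the test. Mrc1, the mannose receptor gene, read 11.16, 11.06 and 11.10 in Rarb-null against 10.92, 11.24 and 10.78 in wild type. The Rarb-null arrays lay close together, between wild-type replicates 1 and 3 below and wild-type replicate 2 above, and the difference was 0.13 log2 (interval -0.20 to 0.45). Cd163, which encodes a receptor for haemoglobin bound to haptoglobin, read 11.37, 11.59 and 11.35 in Rarb-null against 11.22, 11.73 and 11.46 in wild type, with a difference of -0.03 log2. Folr2, a folate receptor gene of resident macrophages, read 10.74, 10.59 and 10.48 in Rarb-null against 9.73, 10.91 and 10.60 in wild type. Wild-type replicate 1 was the lowest by far, at a signal 2.27-fold under wild-type replicate 2, and the genotype difference of Folr2 was 0.19 log2 (interval -0.48 to 0.86).

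The class A scavenger receptor gene Msr1 had means of 8.37 ± 0.09 against 8.23 ± 0.23, a difference of 0.14 log2, while its 3 other probe sets gave values from -0.36 to 0.00 log2. Marco, another class A scavenger receptor gene, read 5.66, 5.72 and 5.37 in Rarb-null against 5.80, 5.70 and 6.21 in wild type. Marco and Itgam were the 2 genes whose mean lay under 6 log2, in the range removed when dim probe sets were left out. Marco differed by -0.32 log2 (interval -0.72 to 0.08, adjusted p in limma 0.908), with its highest value on wild-type replicate 3 and its lowest on Rarb-null replicate 3.

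Antibody receptors and their signalling adaptors were split, 4 higher and 2 lower on Rarb-null arrays. Fcgr2b, the inhibitory IgG receptor gene, read 9.79, 9.86 and 10.45 in Rarb-null (replicates 1, 2 and 3) against 9.46, 9.84 and 9.64 in wild type. Rarb-null replicate 3 stood well above all other arrays, replicate 2 only just above wild-type replicate 2, and Rarb-null replicate 1 just below it. The means were 10.04 ± 0.36 against 9.65 ± 0.19, a difference of 0.39 log2 (interval -0.08 to 0.86, adjusted p in limma 0.908). Its 4 other probe sets ran from -0.04 to 0.36 log2, and 3 of them were above 0. Fcgr1, the high-affinity IgG receptor gene, had means of 8.15 ± 0.16 against 8.10 ± 0.47, while its other probe set gave -0.05 log2. Fcgr3, an activating IgG receptor gene, read 9.96, 10.09 and 9.92 in Rarb-null against 9.43, 10.34 and 9.84 in wild type. As for C1qa, wild-type replicates 1 and 2 were the lowest and the highest arrays for Fcgr3.

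Fcer1g and Tyrobp encode membrane adaptors that carry the ITAM motif and pass signals from Fc receptors and from Trem2 to the kinase Syk. Tyrobp read 11.54, 11.26 and 11.48 in Rarb-null against 11.04, 11.92 and 11.65 in wild type, again with wild-type replicate 1 lowest and wild-type replicate 2 highest, and a difference of -0.11 log2 (interval -0.64 to 0.41). Fcer1g had means of 8.64 ± 0.12 against 8.85 ± 0.36, a difference of -0.20 log2. Trem2, a lipid-sensing receptor gene of phagocytes, had means of 6.97 ± 0.07 against 6.96 ± 0.20. Its other probe set gave -0.14 log2.

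Genes of monocyte entry and microbial recognition, listed together with Lyz2 and Cybb, were split, 3 higher and 3 lower in Rarb-null, with varied array orders. Cd14, the co-receptor for bacterial lipopolysaccharide, read 10.31, 10.44 and 11.76 in Rarb-null (replicates 1, 2 and 3) against 10.65, 10.69 and 10.23 in wild type. The high mean of Rarb-null arrays came from replicate 3, the highest of the 6 arrays by far, while the other 2 Rarb-null arrays lay among the wild-type values. The genotype difference of Cd14 was 0.31 log2 (interval -0.57 to 1.19). Clec7a, which encodes the beta-glucan receptor dectin, read 8.28, 8.13 and 8.73 in Rarb-null against 8.93, 8.27 and 9.07 in wild type. It was high on wild-type replicates 1 and 3 and Rarb-null replicate 3 and low on the other arrays, and the difference was -0.38 log2 (interval -0.96 to 0.20, adjusted p in limma 0.914). Itgam and Itgb2 encode the chains of the complement receptor integrin of monocytes and neutrophils, with means of 5.85 ± 0.22 against 5.58 ± 0.30 for Itgam and 10.43 ± 0.11 against 10.36 ± 0.21 for Itgb2. Lyz2, the lysozyme gene of myeloid cells, read 12.73, 12.35 and 12.34 in Rarb-null against 12.41, 12.92 and 12.54 in wild type, a difference of -0.15 log2. Cybb, the catalytic subunit gene of the phagocyte oxidase, had means of 8.72 ± 0.15 against 8.84 ± 0.03, and its 2 other probe sets gave -0.49 and 0.32 log2.

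Genes found across macrophages, those of membrane proteins together with Aif1, were split too, 3 higher and 3 lower in Rarb-null. Of the lysosomal genes 2 were higher and 1 lower. Adgre1, an adhesion receptor gene that marks mouse macrophages, read 10.70, 10.54 and 10.68 in Rarb-null against 10.27, 10.82 and 10.32 in wild type. Its Rarb-null values lay within the range set by wild-type replicates 1 and 2, and the difference was 0.17 log2 (interval -0.22 to 0.55). Cd68, a lysosomal glycoprotein gene, read 10.82, 10.87 and 10.91 in Rarb-null against 10.36, 11.11 and 10.70 in wild type, a difference of 0.14 log2. Ctss, the cathepsin S gene, was nearly equal at 13.19 ± 0.04 against 13.18 ± 0.20. Ms4a7 and Ms4a6d, of a family of 4-pass membrane proteins, differed by 0.18 and -0.06 log2. The value of Ms4a6d came from a probe set listed in the deposited annotation as Ms4a11. A dimmer probe set listed as Ms4a6d gave 0.09 log2, and another listed as Ms4a11 gave -0.08 log2. The tetraspanin gene Cd53 differed by 0.22 log2, and Laptm5, a lysosomal membrane protein gene of blood cells, by -0.31 log2, with all 3 other probe sets of Laptm5 of the same sign at -0.09 to -0.02 log2.

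Aif1 had the lowest difference of the list, and Gpnmb the lowest after Aif1 and C1qb. Aif1, a calcium-binding protein gene known as Iba1, read 7.78, 7.01 and 6.68 in Rarb-null (replicates 1, 2 and 3) against 7.55, 7.75 and 7.84 in wild type. Rarb-null replicates 2 and 3 lay under all wild-type arrays, but Rarb-null replicate 1 lay above wild-type replicates 1 and 2. The means were 7.16 ± 0.56 against 7.71 ± 0.15, a difference of -0.55 log2 (interval -1.19 to 0.08, adjusted p in limma 0.908), and there was 1 probe set. Without Rarb-null replicate 1 the difference of Aif1 was -0.87 log2, with an unadjusted p of 0.00181 and an adjusted p in limma of 0.9999. It was -0.32 log2 without Rarb-null replicate 3 (unadjusted p 0.231) and -0.30 log2 with array weights (unadjusted p 0.350). Its adjusted p was at least 0.654 under every alternative that measured it. Gpnmb, a glycoprotein gene of lipid-laden macrophages, read 8.19, 9.04 and 9.01 in Rarb-null against 9.43, 9.03 and 9.19 in wild type. It was low on Rarb-null replicate 1 alone, and the difference was -0.47 log2 (interval -1.04 to 0.10). By the authors' deposited table, 0 of the 32 genes had a p-value under 0.05, and Aif1 had the smallest, 0.0793.

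**Figure D3:**
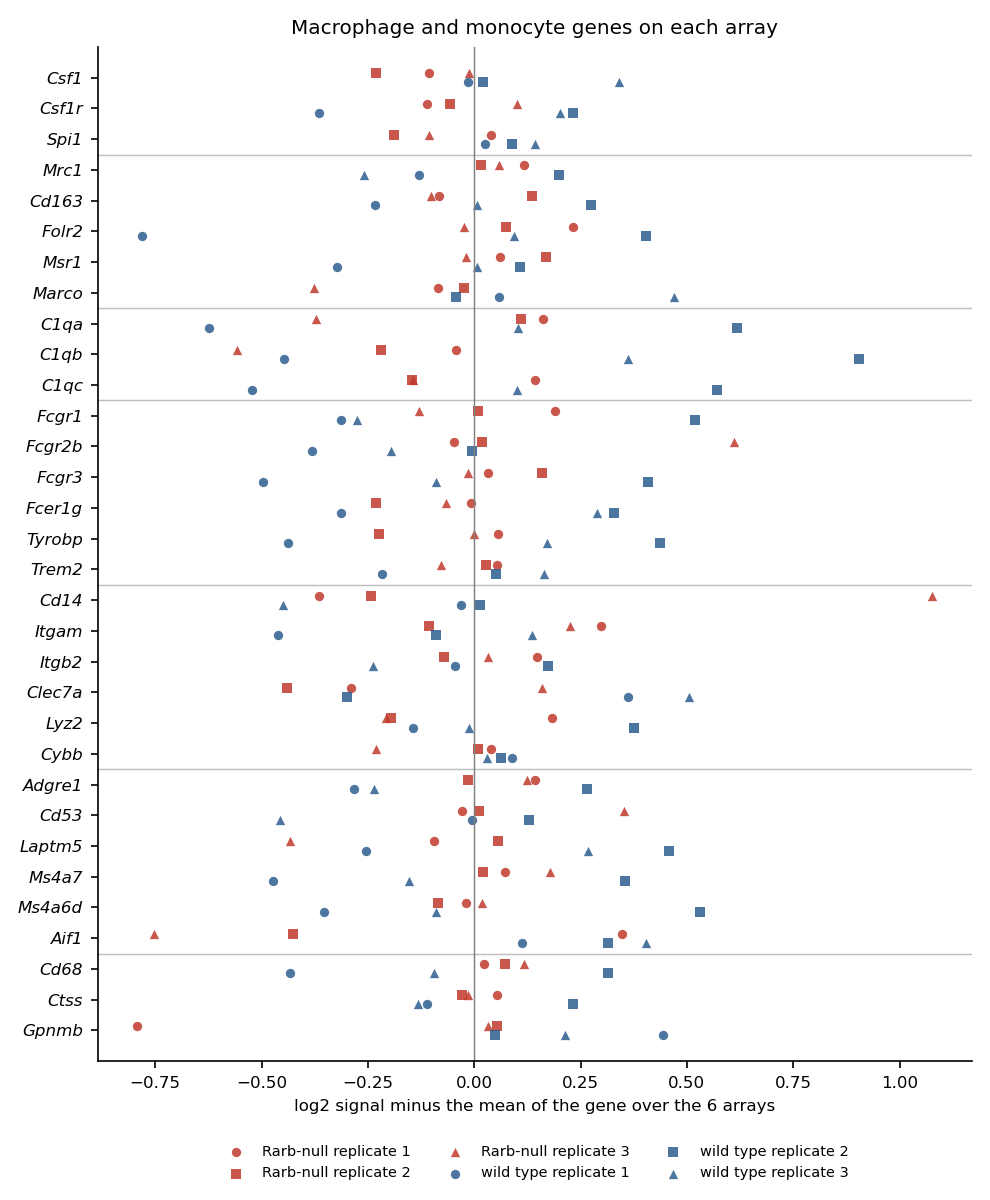
Log2 signal of each of the 32 genes relative to its own mean over the 6 arrays (horizontal axis), in the order of their roles, with grey lines between roles; red symbols are Rarb-null and blue symbols wild-type arrays, and the shape gives the replicate. Wild-type replicate 2 (blue squares) is the highest array for 19 genes and wild-type replicate 1 (blue circles) the lowest for 17.

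Many of the genes shared an array order that lay within the wild type. Wild-type replicate 2 held the highest value of 19 of the 32 genes, and wild-type replicate 1 the lowest of 17. Over all genes those arrays were the highest for 15.0% and the lowest for 19.97%. Of the 32 genes, 28 were higher on wild-type replicate 2 than on wild-type replicate 1, with a median step of 0.47 log2, beside 0.02 log2 over all genes. The SD of the wild-type arrays exceeded that of the Rarb-null arrays for 26 of the 32 genes and for 59.4% of all genes. The median SD was 0.30 log2 in wild type and 0.14 log2 in Rarb-null for the 32 genes, and 0.18 and 0.15 log2 for all genes. The genotype comparison turned with these arrays: without wild-type replicate 1 the mean was higher on Rarb-null arrays for 8 genes with a median difference of -0.16 log2, and without wild-type replicate 2 for 22 genes with a median of 0.14 log2. The number past an adjusted p of 0.05 was 0 in both.

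Resident, complement and monocyte genes were then set side by side as the mean deviation of each group from the 6-array mean. Mrc1, Cd163, Folr2 and Lyve1, the hyaluronan receptor gene shared with lymphatic vessels, gave 0.16, 0.00 and 0.06 in Rarb-null (replicates 1, 2 and 3) against -0.34, 0.28 and -0.16 in wild type. The C1q chains gave 0.09, -0.08 and -0.36 in Rarb-null (replicates 1, 2 and 3) against -0.53, 0.70 and 0.19 in wild type. Both groups were lowest on wild-type replicate 1 and highest on wild-type replicate 2, but they parted on Rarb-null replicate 3 and wild-type replicate 3. Resident minus complement was 0.19 ± 0.19 on Rarb-null and -0.19 ± 0.33 log2 on wild-type arrays (mean ± SD, n = 3 each), and the groups overlapped. The C1qb probe sets disagreed, and Lyve1 differed by 0.29 log2 while its other probe set gave -0.13 log2. This contrast, and the one with monocyte genes below, are thus descriptions of the brightest probe sets only. The 6 genes of the monocyte entry and recognition list, Lyz2 and Cybb among them, were taken as the monocyte group. They gave 0.00, -0.17 and 0.18 in Rarb-null (replicates 1, 2 and 3) against -0.04, 0.04 and 0.00 in wild type. Resident minus monocyte was 0.07 ± 0.16 on Rarb-null and -0.07 ± 0.28 log2 on wild-type arrays, again with overlap.

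Other cell types also moved between these arrays. The mean deviation of 11 proliferation genes was 1.34, 1.31 and -1.56 in Rarb-null (replicates 1, 2 and 3) against -1.14, 1.40 and -1.35 in wild type, with wild-type replicate 2 and Rarb-null replicates 1 and 2 high and the other arrays low. The 32 macrophage and monocyte genes gave 0.01, -0.06 and -0.02 in Rarb-null against -0.22, 0.25 and 0.04 in wild type, also highest on wild-type replicate 2, and lowest on wild-type replicate 1. Mammary epithelial markers gave 0.32, 0.39 and -0.22 in Rarb-null against -0.25, 0.54 and -0.78 in wild type, also highest on wild-type replicate 2 but lowest on wild-type replicate 3. Adipocyte markers gave -0.16, -0.03 and -0.09 in Rarb-null against 0.29, -0.27 and 0.27 in wild type, and wild-type replicate 2 was the lowest. Brown adipocyte markers gave -0.15, -1.21 and 2.07 in Rarb-null against 0.14, -0.95 and 0.10 in wild type, and Rarb-null replicate 3, where Cd14 and Fcgr2b were highest, was also the highest there. All 7 measured neutrophil markers together gave -0.19, -0.40 and 0.53 in Rarb-null against 0.20, -0.36 and 0.22 in wild type, with Ltf, a lactoferrin gene also made by epithelium, ranging from 8.16 to 12.999. In that list S100a8 and S100a9, calcium-binding protein genes of neutrophils, read between 5.05 and 6.47 on all arrays. The part of other cell types in the macrophage values was not tested.

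**Figure D4:**
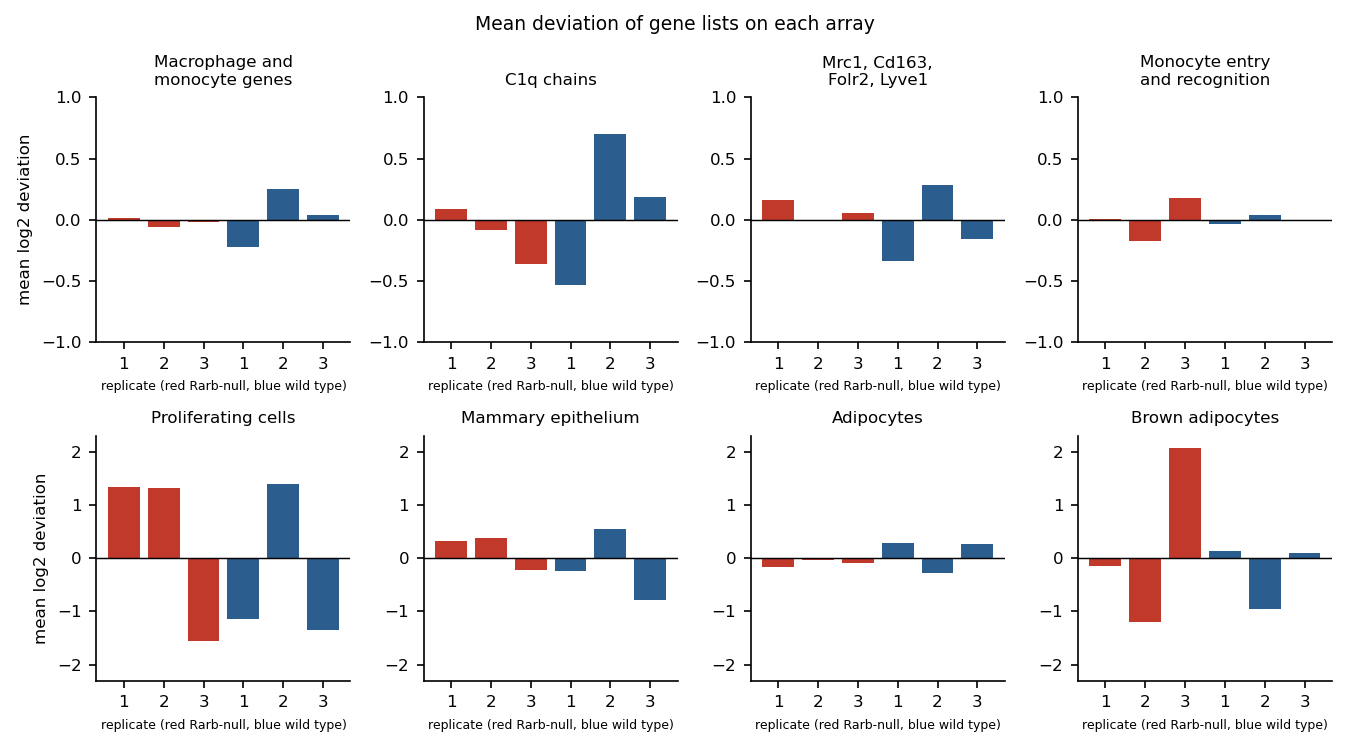
Mean log2 deviation of 8 gene lists from their 6-array means on each array (bars from 0, red Rarb-null and blue wild type, replicates 1 to 3); the upper and lower rows have different scales. The C1q chains reach 0.70 on wild-type replicate 2 and -0.53 on wild-type replicate 1, and the brown adipocyte list reaches 2.07 on Rarb-null replicate 3.

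Of 78 measured genes in 9 further lists of the mononuclear phagocyte system, 0 passed an adjusted p of 0.05, and 6 had an unadjusted p under 0.05, 7.69% beside 5.3% of all genes. All 6 were lower in Rarb-null, with no overlap between genotypes, where 3.41% of all genes had such a p and a lower mean. Of all 78 genes, 8 were lower and 1 was higher without overlap, beside 6.59% and 4.01% of all genes. Spn, which encodes the sialomucin leukosialin of leukocytes, read 6.75, 6.53 and 6.75 in Rarb-null against 7.72, 6.95 and 7.59 in wild type, a difference of -0.74 log2 (adjusted p in limma 0.908). The second Spn probe set gave 0.14 log2, and the mean of both probe sets differed by -0.30 log2 (unadjusted p 0.0732). Coro1a, an actin-binding protein gene of leukocytes, read 8.98, 8.31 and 8.44 in Rarb-null against 9.19, 9.29 and 9.40 in wild type. Its means differed by -0.72 log2, and its 2 other probe sets gave -0.48 and -0.21 log2. The leukocyte surface gene Cd52 read 8.92, 8.67 and 9.17 in Rarb-null against 9.68, 9.19 and 9.60 in wild type, a difference of -0.57 log2. Irf8, an interferon regulatory factor of monocytes and dendritic cells, read 8.36, 8.35 and 8.21 in Rarb-null against 8.83, 8.53 and 8.66 in wild type, a difference of -0.37 log2. The other probe set of Irf8 gave -0.27 log2. Spn, Coro1a, Cd52 and Irf8 are also expressed by lymphocytes or dendritic cells. Markers of T and NK cells were 4 higher and 5 lower in Rarb-null (median -0.02 log2). Those of B cells were 1 higher and 5 lower (median -0.13 log2). Among 10 markers of dendritic cells and MHC class II, 8 were lower and 2 higher in Rarb-null, where 47.1% of all genes had a higher mean. Cd74, the invariant chain gene, differed by -0.35 log2 (unadjusted p 0.0147) and H2-DMa, a peptide loading gene, by -0.39 log2 (unadjusted p 0.0356). Both were lower without overlap, as 6.59% of all genes were. The other probe set of H2-DMa gave -0.03 log2. Among 7 mast cell markers 6 were lower and 1 higher, and 2 were lower without overlap, beside the same 6.59% of all genes. Mcpt4, a mast cell protease gene, differed by -0.54 log2 (unadjusted p 0.00634) and Ms4a2, an IgE receptor chain gene, by -0.66 log2 (unadjusted p 0.00169), both without overlap, while the other probe set of Ms4a2 gave 0.05 log2. Cd74, H2-DMa, Mcpt4 and Ms4a2 each had an adjusted p in limma of 0.908, and the part of those cells in the lower values was not tested. Lgals3 and Atp6v0d2, a galectin and a proton pump subunit gene of lipid-laden macrophages, were also among the 6 genes. Lgals3 had means of 9.84 ± 0.08 against 10.46 ± 0.14. Its difference was -0.61 log2 (interval -0.88 to -0.34, in limma unadjusted p 0.00100 and adjusted p 0.908). The other probe set of Lgals3 gave -0.34 log2. Atp6v0d2 had means of 5.97 ± 0.09 against 6.51 ± 0.40. Its difference was -0.54 log2 (in limma unadjusted p 0.0299 and adjusted p 0.908), and its other probe set gave -0.44 log2. For Atp6v0d2 the highest Rarb-null value and the lowest wild-type value both rounded to 6.06.

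By list, resident-type genes other than the members were 6 higher and 5 lower, with a median of 0.01 log2. Stab1, a scavenger receptor gene of resident macrophages, differed by -0.25 log2. These 11 genes were, on average, lowest on wild-type replicate 1 and highest on wild-type replicate 2, with mean deviations of 0.17, -0.01 and -0.12 in Rarb-null against -0.30, 0.27 and -0.01 in wild type. Other monocyte genes were 2 higher and 5 lower (median -0.02 log2), including the receptor gene Treml4 at -0.25 log2. The further colony-stimulating factors and receptors were 4 higher and 3 lower, with Csf2ra and Csf2rb, chains of the GM-CSF receptor, at -0.42 and -0.13 log2. The other probe set of Csf2rb gave 0.16 log2.

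Myeloid transcription factors other than Spi1 were 1 higher and 7 lower (median -0.07 log2), where Mitf, a regulator of lysosomal genes, read 9.76 ± 0.08 against 9.95 ± 0.06, while its other probe set gave 0.07 log2. ITAM and ITIM signalling genes were 5 higher and 4 lower. Ptpn6, the phosphatase of inhibitory receptors, read 9.19 ± 0.02 against 9.35 ± 0.07, while its other probe set gave 0.11 log2. Vav1, an exchange factor gene, differed by -0.21 log2. Phagocyte oxidase subunits were 2 higher and 3 lower, with Ncf4 at -0.22 log2. Pan-leukocyte genes were 2 higher and 6 lower (median -0.08 log2), and lipid-associated genes 6 higher and 5 lower (0.04 log2). Inflammatory and alternative activation genes were 5 higher and 7 lower, with the cytokine genes Tnf and Il1b at -0.14 and -0.18 log2. The adjusted p in limma was at least 0.908 for all 78 genes.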

How the data were processed

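RNA of 6 arrays was analysed. The authors deposited log2 values made with RMA (per the submitters' processing notes, no version named). RMA forces arrays to a common distribution and compresses small differences of dim probe sets. No detection flags were used, and the number of arrays limits the precision. A second table holds the authors' means, log2 fold changes and p-values from SAM, per the file headers; its fold changes equalled the group mean differences within 7.4e-06. The sources used here do not name the array design.

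After 64 control probe sets were left out, 45037 were compared with limma 3.58.1 in R 4.3.3 (lmFit, eBayes, two-sided, Benjamini-Hochberg over all, threshold 0.05). Symbols came from the authors' table, updated through RefSeq synonyms; the brightest probe set by its mean stood for each gene. Every measured member is named, and of each of the 9 further lists the 2 genes with the smallest p, except that results of 2 genes are not reported here. Members and lists were chosen with earlier results of these data known. Alternatives were median centring, a second quantile normalization, leaving out dim probe sets, another prior, array weights, other probe sets, the replicate number as a block, and each array left out. The fit was tested on simulated data. Python 3.11.15 with matplotlib 3.10.9 drew the figures.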

Additional observations from a re-analysis of the deposited data

How the results depend on the processing

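Under all 16 alternatives the number of the 32 genes past an adjusted p of 0.05 stayed at 0. The arrays number 3 per genotype, and with 1 left out the count at an unadjusted p under 0.05 ran from 0 to 3, the count with a higher Rarb-null mean from 8 to 22, and the median difference from -0.16 to 0.14 log2. The 3 genes without wild-type replicate 1 were C1qb, Fcer1g and Laptm5, all lower, where 5.9% of all genes reached such a p. The 3 without wild-type replicate 2 were Adgre1 and Ms4a7, both higher, and Clec7a, lower, where 10.9% of all genes reached it. Without Rarb-null replicate 1 there was 1, Aif1, beside 4.73% of all genes. With the replicate number as a block there was 1, Clec7a (unadjusted p 0.0352, adjusted p in limma 0.643), beside 7.31% of all genes. The difference of Clec7a was unchanged there at -0.38 log2. Same-numbered arrays did not deviate together throughout: the correlations of their deviations from the group means over all probe sets were -0.20, 0.45 and 0.29, and Rarb-null replicate 1 correlated best with wild-type replicate 2 (0.38). These correlations cannot decide whether the numbers pair littermates, since the arrays also differed in proliferation and brown fat genes. The labels state no pairing, and the main comparison was unpaired. Probe set choice changed the sign for 3 genes by at least the SD pooled over both genotypes, though for C1qb by less than its wild-type SD of 0.68: without probe sets ending in _x_at or _s_at, C1qb was at 0.025 log2 and Ptpn6 at 0.11 log2, and with the mean of all probe sets Msr1 was at -0.095 log2. In any alternative at most 7 of the 32 genes changed sign. Allowing probe sets that name several genes was chosen after seeing the data and left the count past the threshold at 0.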

Other observations

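In the list of lipid-associated macrophage genes, Spp1, which encodes the secreted phosphoprotein osteopontin, read 8.48, 8.19 and 13.66 in Rarb-null (replicates 1, 2 and 3) against 11.00, 8.86 and 8.91 in wild type. It and the other genes of this section were chosen after their values were seen. Rarb-null replicate 3, which was also the highest array for brown adipocyte markers, stood far above the next array, wild-type replicate 1, and the genotype difference was 0.52 log2 with a 95% interval from -2.86 to 3.89. Fabp5, a fatty acid binding protein gene of adipocytes and macrophages, read 10.55, 9.58 and 11.30 in Rarb-null against 12.09, 9.99 and 11.19 in wild type, high on wild-type replicates 1 and 3 and Rarb-null replicate 3.

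Plac8, listed as a monocyte gene, read 11.77, 11.39 and 10.31 in Rarb-null against 9.96, 12.08 and 11.48 in wild type. It was low on wild-type replicate 1 and Rarb-null replicate 3, and its genotype difference was -0.02 log2. Vsig4, a complement receptor gene of resident macrophages, read 7.90, 7.45 and 7.11 in Rarb-null against 7.05, 8.13 and 8.18 in wild type, and Cd209f, a lectin gene of resident macrophages, 11.32, 11.08 and 10.96 in Rarb-null against 10.28, 11.59 and 11.13 in wild type. Both were lowest on wild-type replicate 1, as were the C1q chains C1qa and C1qc.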
